A study of Mus musculus with 2 samples.

Results

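The expression of 6 genes that move sodium, potassium, chloride and bicarbonate ions across the glial membrane was followed through the cell types of the mouse neurohypophysis (NH): *Scn7a*, *Ano1*, *Slc4a4*, *Atp1b2*, *Kcnj10* and *Slc12a2*. They are 6 of the 27998 genes in the files, were taken by symbol, and were selected on measured values, since their levels in pituicytes, the glia of the NH, were known when they were chosen. Their levels by cell type are therefore given as a description, without a test. Neurohypophyses of C57BL/6 male mice of 3 months were dissected, pooled from 5 mice and dissociated with Liberase and papain. Both pools (2 in all) were sequenced as single cells in droplets, in which each captured mRNA carries a unique molecular identifier (UMI). All mice were untreated, so the 2 pools are replicates of 1 condition and the comparison is between cell types. The dissected tissue also held cells of the adjacent intermediate lobe (IL) of the pituitary.

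Of the barcodes of pool 1 and pool 2, 273 and 255 were kept as cells by the study's own limits, with 699676 and 726706 UMIs and no barcode in both pools. The cell types are those of the authors' own 11 clusters, merged to 7 types. Those called IL cells here are the clusters with the deposited names neural progenitor a and neural progenitor b. Pituicytes made up 108 cells of pool 1 with 235655 UMIs and 88 cells of pool 2 with 253480 UMIs. The other types were IL cells (80 and 68 cells), epithelial-like cells (7 and 16), macrophage/microglia (41 and 54) and T-cell like cells (26 and 16). The rest were vascular endothelia (6 and 7) and a cluster called VLMC here, for vascular and leptomeningeal cells (5 and 6). The authors' deposited name of that cluster is OPC/LVMC, which also names oligodendrocyte precursor cells (OPC). Per pool, the sums of the vascular endothelia and the VLMC cluster held between 8491 and 15098 UMIs, so a single UMI weighs far more in them than in pituicytes. The label of the pituicytes was checked with 7 markers (*Col25a1*, *Rax*, *Srebf1*, *Vegfa*, *Gja1*, *Adm*, *Col13a1*), which were highest in pituicytes in both pools for 7 of 7 genes. Their summed level was 5529 and 5693 UMIs per 1e6 UMIs (CPM) in pituicytes, against at most 480.5 CPM in any other type. These markers were read in the same cells that were clustered and are no independent check.

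Pituicytes surround the axon terminals from which oxytocin and vasopressin enter the blood, and glia of this kind take up and buffer the ions that firing axons release. *Scn7a* encodes Nax, a sodium channel homolog that opens with extracellular sodium rather than with voltage and is known from glia of organs that sense body fluids. *Ano1* encodes a calcium-activated chloride channel, *Slc4a4* the electrogenic sodium bicarbonate cotransporter NBCe1 and *Slc12a2* the sodium, potassium and chloride cotransporter NKCC1. *Atp1b2* encodes the glial beta subunit of the sodium/potassium pump, and *Kcnj10* the inward rectifier Kir4.1, through which astrocytes and oligodendrocytes take up potassium.

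In the mouse annotation (GENCODE M21, build GRCm38) *Scn7a* lies on chromosome 2 (66673425 to 66784914, minus strand), *Ano1* on chromosome 7 (144588549 to 144751974, minus strand), *Slc4a4* on chromosome 5 (88886818 to 89239653, plus strand), *Atp1b2* on chromosome 11 (69599736 to 69605942, minus strand) and *Kcnj10* on chromosome 1 (172341210 to 172374085, plus strand). No other gene of the annotation overlaps *Scn7a*, *Slc4a4*, *Atp1b2* or *Kcnj10*. *Ano1* is overlapped by *Gm44930* on the opposite strand, and whether the counting used strand is not given in the sources used here.

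RefSeq promoter windows (GRCm38.p6, 250 bases before to 50 after a transcript start) were matched by symbol for 4 of the 6 genes. They are shown because *Scn7a*, *Ano1* and *Slc4a4* had nearly all of their UMIs in pituicytes and *Kcnj10* did not, and because they differ in CpG content. Capitals mark each CpG. The window of *Scn7a* is chr2:66784861-66785160 on the minus strand, that of *Ano1* chr7:144738524-144738823 on the minus strand, those of *Slc4a4* chr5:88887010-88887309 and chr5:89027716-89028015 on the plus strand, and that of *Kcnj10* chr1:172340960-172341259 on the plus strand.
Scn7a: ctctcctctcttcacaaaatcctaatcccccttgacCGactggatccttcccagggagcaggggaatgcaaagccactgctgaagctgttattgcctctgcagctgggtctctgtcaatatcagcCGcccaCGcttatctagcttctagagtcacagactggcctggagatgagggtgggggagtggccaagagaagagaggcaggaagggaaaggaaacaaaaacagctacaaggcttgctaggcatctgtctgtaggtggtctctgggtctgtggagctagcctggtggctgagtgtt
Ano1: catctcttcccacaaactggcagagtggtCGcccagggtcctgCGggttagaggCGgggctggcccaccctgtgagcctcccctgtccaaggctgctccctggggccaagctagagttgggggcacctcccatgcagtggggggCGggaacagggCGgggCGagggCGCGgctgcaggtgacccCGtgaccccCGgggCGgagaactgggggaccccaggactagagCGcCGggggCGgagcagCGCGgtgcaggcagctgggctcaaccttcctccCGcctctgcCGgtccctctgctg
Slc4a4, upstream start: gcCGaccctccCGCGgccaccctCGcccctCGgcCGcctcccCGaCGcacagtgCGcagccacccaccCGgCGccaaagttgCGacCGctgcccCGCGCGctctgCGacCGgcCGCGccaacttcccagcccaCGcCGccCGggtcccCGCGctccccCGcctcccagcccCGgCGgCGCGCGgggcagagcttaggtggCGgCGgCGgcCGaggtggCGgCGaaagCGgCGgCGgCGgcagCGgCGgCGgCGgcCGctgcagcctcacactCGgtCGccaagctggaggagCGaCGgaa
Slc4a4, downstream start: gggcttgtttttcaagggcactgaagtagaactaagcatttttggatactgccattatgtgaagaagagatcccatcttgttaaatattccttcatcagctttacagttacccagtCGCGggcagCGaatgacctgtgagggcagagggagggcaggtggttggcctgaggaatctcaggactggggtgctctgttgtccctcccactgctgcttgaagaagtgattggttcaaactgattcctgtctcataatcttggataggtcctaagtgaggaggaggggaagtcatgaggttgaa
Kcnj10: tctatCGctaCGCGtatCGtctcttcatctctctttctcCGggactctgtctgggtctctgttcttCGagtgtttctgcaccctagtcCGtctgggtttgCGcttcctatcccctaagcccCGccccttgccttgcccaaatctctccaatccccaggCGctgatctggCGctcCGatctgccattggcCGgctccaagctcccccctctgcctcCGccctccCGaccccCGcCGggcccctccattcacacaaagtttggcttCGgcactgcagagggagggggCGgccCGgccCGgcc

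The *Scn7a* window held 3 CpG in 300 bases and the *Ano1* window 18, where the median of 32851 mouse windows was 7. *Slc4a4*, the bicarbonate cotransporter, has a pair of starts of opposite kinds, an upstream one with 50 CpG and 80.0% G and C and a downstream one with 3 CpG and 48.3%. The upstream window had more CpG than 99.1% of all windows. *Kcnj10* had 21 CpG and 63.7% G and C. High CpG content was thus seen both in genes found almost wholly in pituicytes and in *Kcnj10*, and low CpG content in *Scn7a* and at the downstream start of *Slc4a4*. The *Ano1* window lies inside the annotated gene, downstream of its 5′ end at 144751974. The counts, read at the 3′ end of transcripts, do not tell which start of *Slc4a4* or of *Ano1* was used.

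The level of *Scn7a*, the sodium-sensing channel, was 1663 CPM in the pituicytes of pool 1 and 1779 CPM in those of pool 2, from 392 and 451 UMIs (mean 1721 CPM ± 81.9, SD, n = 2 pools). IL cells had 60.4 and 16.0 CPM, from 17 and 4 UMIs. The VLMC cluster had 0 UMIs in pool 1 and 5 in pool 2 (331 CPM, exact 95% Poisson interval 108 to 773), 4 of them in 1 cell. Both pituicyte pools stood above every other sum, and their intervals (1503 to 1837 and 1619 to 1951 CPM) did not reach those of any other type. A single UMI was seen in the macrophage/microglia of pool 1 and another in its T-cell like cells, and none in epithelial-like cells or vascular endothelia. Over both pools 96.8% of the 871 *Scn7a* UMIs were in pituicytes, at 57.7 times the CPM of all other cells together. The paper picked *Scn7a* as a pituicyte marker in these same cells, so its share there is no independent check. Intervals here and below cover counting error only, and n is the number of pools.

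Of the 17 *Scn7a* UMIs in the IL cells of pool 1, 9 were in a single cell that also held 23 UMIs of the pituicyte markers and 486 of *Pomc*, the hormone precursor of IL cells. A second IL cell, with 3 *Scn7a* UMIs, held 10 pituicyte marker UMIs and 1 *Pomc* UMI among 1029. Without the first cell the IL cells of pool 1 had 8 *Scn7a* UMIs (28.8 CPM), against 4.27 expected from free RNA in the droplets. In pool 2 the 4 UMIs compare with 3.26 expected. No doublets were removed, and the part of doublets in these values was not tested.

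*Ano1*, the calcium-activated chloride channel, had 204 CPM in the pituicytes of pool 1 (48 UMIs) and 237 CPM in those of pool 2 (60 UMIs; mean 220.2 ± 23.3, SD, n = 2). None of its 108 UMIs was in another cell type. The other cells held 937247 UMIs, so that *Ano1* was at least 69.0-fold higher in pituicytes, taking 3 counts over all other cells as the limit. For the smaller types the limit is loose, since 3 counts in the VLMC cluster equal 127 CPM over both pools. The exact binomial 95% interval of the share of cells with an *Ano1* UMI reached 28.5% there (0 of 11 cells) and 2.46% in IL cells (0 of 148). These bounds hold for cells with a UMI at this depth and not for cells that express the gene.

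*Slc4a4*, the bicarbonate cotransporter, had 509 and 469 CPM in pituicytes, from 120 and 119 UMIs (mean 489 ± 28.1, SD, n = 2). It was nearly as exclusive as *Ano1*, with 1 UMI in the IL cells and 1 in the epithelial-like cells of pool 2 and none elsewhere, so that 99.2% of its 241 UMIs were in pituicytes. The ratio to all other cells was 153, which rests on these 2 UMIs. The 1 IL UMI compares with 0.992 expected from free RNA.

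*Atp1b2*, the glial pump subunit, had 136 and 189 CPM in pituicytes (32 and 48 UMIs; mean 163 ± 37.9, SD, n = 2). It was found in other types too. IL cells had 24.9 and 36.1 CPM, from 7 and 9 UMIs where free RNA would give 0.535 and 0.404. Epithelial-like cells had 104 and 33.8 CPM from 2 UMIs in each pool, the VLMC cluster 0 and 132 CPM, vascular endothelia 88.1 and 0 CPM, macrophage/microglia 11.3 and 9.27 CPM, and T-cell like cells none. Pituicytes were highest in both pools and the IL intervals (10.0 to 51.3 and 16.5 to 68.5 CPM) did not overlap theirs (92.9 to 192 and 139.6 to 251 CPM). For the epithelial-like cells of pool 1, the vascular endothelia and the VLMC cluster the intervals overlapped those of pituicytes, and the order of these types is not fixed by the data. The ratio to all other cells was 5.73 in pool 1 and 6.40 in pool 2.

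*Slc12a2*, the NKCC1 cotransporter, had 144 and 189 CPM in pituicytes (34 and 48 UMIs; mean 167 ± 31.9, SD, n = 2), 5.07 times the level of all other cells together. Pituicytes did not have the highest level. The VLMC cluster stood above them in both pools with 236 and 397 CPM, from 2 and 6 UMIs and with intervals that overlap those of pituicytes. Macrophage/microglia had 67.7 and 46.3 CPM from 6 and 5 UMIs, far above the 0.232 and 0.240 UMIs expected from free RNA. Epithelial-like cells had 0 and 67.7 CPM, IL cells 17.8 and 12.0 CPM, and T-cell like cells and vascular endothelia no UMI.

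*Kcnj10*, the Kir4.1 channel, went against the name of a pituicyte gene. Pituicytes had 3 UMIs in pool 1 and 1 in pool 2 (12.7 and 3.95 CPM), against 6 UMIs in the 11 cells of the VLMC cluster (118 and 331 CPM), 4 in macrophage/microglia (33.8 and 9.27 CPM) and 2 in the epithelial-like cells of pool 2 (33.8 CPM). IL cells, T-cell like cells and vascular endothelia had none. Of its 16 UMIs in all, 4 were in pituicytes, where 34.3% of all UMIs lay, and its CPM in pituicytes was 0.639 times that of all other cells together. With counts this low the interval in pituicytes ran from 2.63 to 37.2 CPM in pool 1 and from 0.0999 to 22.0 CPM in pool 2. A level in pituicytes different from that in macrophage/microglia was not detectable at this depth. Its partner channel *Kcnj16* had no UMI in any of the 528 cells.

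**Figure D1:**
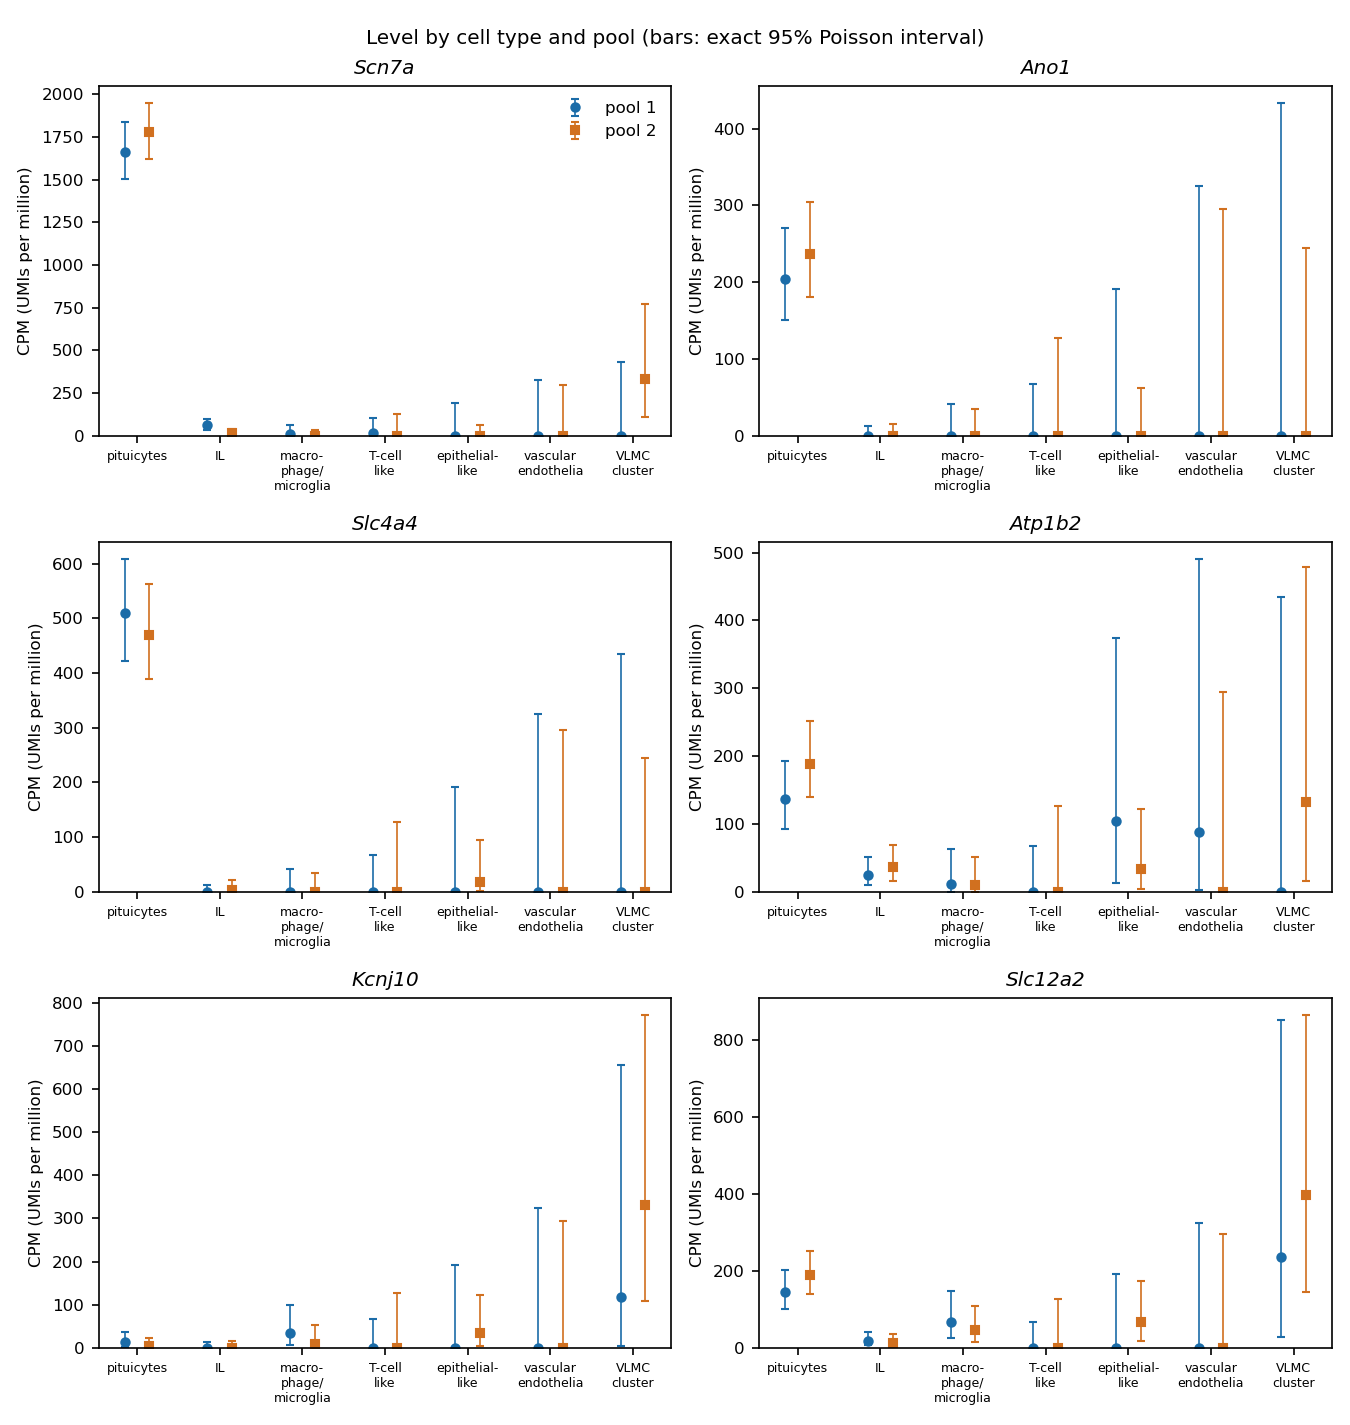
Level of the 6 genes in CPM (linear vertical axes, each with its own range) by cell type; circles are pool 1, squares pool 2, and bars exact 95% Poisson intervals. *Scn7a*, *Ano1* and *Slc4a4* stand high in pituicytes alone, *Atp1b2* is highest there with overlap to small types, and *Kcnj10* and *Slc12a2* are highest in the VLMC cluster, whose 2 sums hold 8491 and 15098 UMIs.

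The VLMC cluster was not uniform. In each pool 1 of its cells, 2 of 11 in all, held most of the UMIs of 6 oligodendrocyte markers (such as *Mbp* and *Mog*), with 161 in the cell of pool 1 and 266 in that of pool 2. Together they had 427 such UMIs and none of the VLMC markers *Lum* and *Dcn*. The other 9 cells had 8 oligodendrocyte marker UMIs, at most 3 in a cell, with 77 of *Lum* and 115 of *Dcn*. They were not uniform either, as 4 of them had no *Lum* UMI. These 2 cells held 5 of the 6 *Kcnj10* UMIs and 7 of the 8 *Slc12a2* UMIs of the cluster, which is 603 CPM of *Kcnj10* (196 to 1406) and 844 CPM of *Slc12a2* (339 to 1738). In the other 9 cells each gene had 1 UMI (65.4 CPM, 1.66 to 364). The cells were picked by their oligodendrocyte marker counts after the data were seen. The 5 *Scn7a* UMIs and both *Atp1b2* UMIs of the cluster were in the other 9 cells, and *Ano1* and *Slc4a4* had none in either. Of the *Scn7a* UMIs 4 were in a cell without *Lum*. That cell held 3 UMIs of 6 VLMC markers, 3 of the oligodendrocyte markers and 0 of the pituicyte markers. The remaining 1 was in a cell with 10 *Lum* UMIs. Of the *Atp1b2* UMIs 1 was in that *Lum* cell and 1 in a cell without *Lum*. In pituicytes the oligodendrocyte markers summed to 25.5 and 35.5 CPM.

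**Figure D2:**
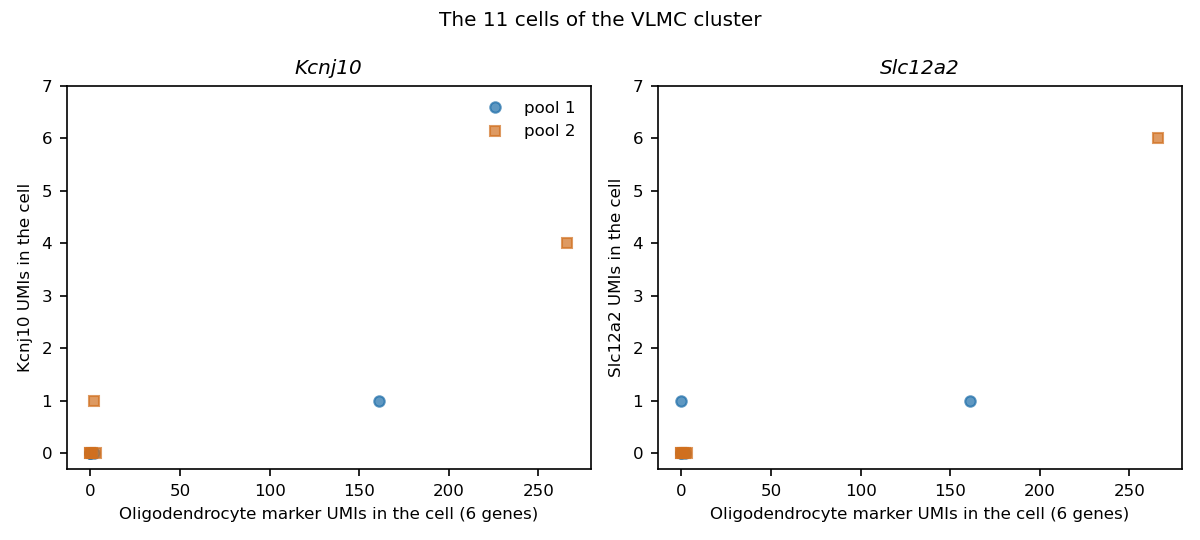
UMIs of *Kcnj10* (left) and *Slc12a2* (right) in each of the 11 cells of the VLMC cluster against the cell's UMIs of 6 oligodendrocyte markers; circles are pool 1, squares pool 2, and cells with equal values overlie each other. The cell with 266 oligodendrocyte marker UMIs held 4 *Kcnj10* and 6 *Slc12a2* UMIs, and the cell with 161 held 1 of each.

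The share of cells with a UMI depends on depth, which was higher in IL cells (median 3143.5 and 3276.5 UMIs) than in pituicytes (1869.0 and 2457.0). Each cell was therefore thinned to 1000 UMIs, which no cell fell short of. *Scn7a* was then found in 70.4% of the 196 pituicytes (exact binomial 95% interval 63.5 to 76.7), against 85.2% before thinning, and in 5.41% of IL cells (2.36 to 10.4). *Slc4a4* was found in 39.8% of pituicytes (61.2% before), *Ano1* in 19.9% (30.1%), *Atp1b2* in 15.3% (27.6%), *Slc12a2* in 13.8% (28.6%) and *Kcnj10* in 0.510% (2.04%). The T-cell like cells, which are not glia, were taken as background and gave 2.38% for *Scn7a* and 0% for the other 5 genes. The upper bound on the share of cells with a UMI was 8.41% (0 of 42 cells), so low expression there is not excluded. The *Kcnj10* share of pituicytes lay inside that interval. Its 3 and 1 UMIs in the pituicytes of pools 1 and 2 compare with 0.0532 and 0.0487 expected from free RNA. Clusters made without the ion transport genes named 185 pituicytes, 177 of them among the authors' 196, and none was named as VLMC. In these pituicytes *Kcnj10* had 22.1 CPM and 3.77% of cells with a UMI before thinning. Its low level thus moved with the cells that were grouped as pituicytes. Which cells brought the added UMIs was not tested.

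**Figure D3:**
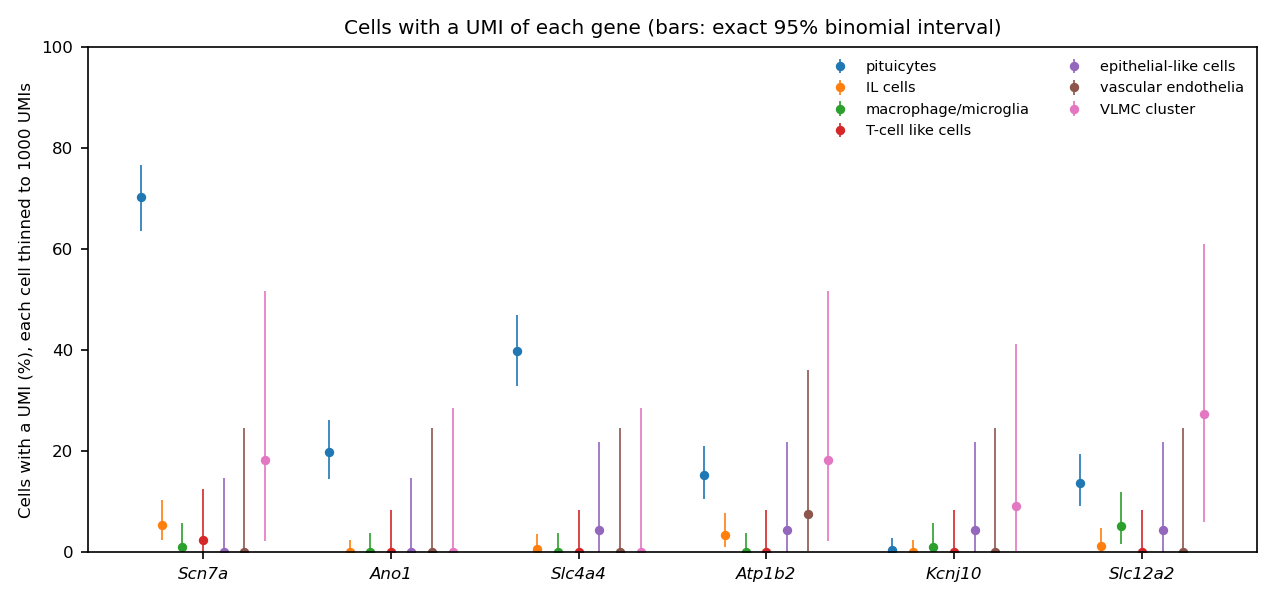
Percent of cells with a UMI of each gene after thinning every cell to 1000 UMIs, by cell type, with exact 95% binomial intervals. Pituicytes lie apart from all 6 other types for *Scn7a* (70.4%), and their interval for *Kcnj10* reaches only 2.81%.

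At least 2 of the 6 genes were found in 148 of the 196 pituicytes (75.5%), and in 98 of the 196 after thinning. The same held before thinning for 4 of 11 cells of the VLMC cluster (36.4%), 1 of 23 epithelial-like cells, 2 of 148 IL cells and 1 of 95 macrophage/microglia, and for none of the T-cell like cells and vascular endothelia. After thinning it held for 2 of the 11 cells of the VLMC cluster. In all, 14 pituicytes (7.14%) held no UMI of any of the 6 genes, 13 held 5 of the genes and none held all 6.

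Among pituicytes *Scn7a* was spread more widely than counts at an equal level would be. The median was 3 UMIs per cell, the quartiles 1 and 6 and the maximum 28. There were 29 pituicytes without a UMI, where 9.66 would be expected if every cell had the same level and differed only in depth. The chi-square per degree of freedom around that equal level was 3.20 for *Scn7a*, 1.60 for *Ano1*, 1.37 for *Kcnj10* and *Slc12a2*, 1.19 for *Slc4a4* and 1.14 for *Atp1b2*. This value grows with the count of a gene, so it does not rank the genes, and the tenth of pituicytes with most UMIs held 34.2% of those of *Scn7a*, 37.2% of *Slc4a4* and 59.3% of *Ano1*. *Slc4a4* and *Atp1b2* had 76 and 142 cells without a UMI, against 69.0 and 134 at an equal level. The cells share 2 libraries and are no replicates, so these values carry no test.

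The 29 pituicytes without *Scn7a* also differed in other ways. Their median depth was 1592 UMIs, against 2193 in the 167 with *Scn7a*, and their summed pituicyte markers were 3457 against 5915 CPM. Their *Pomc* level was 13710.1 against 2150.3 CPM, and 4 of the 29 had no pituicyte marker UMI, against 1 of the 167. *Slc4a4* was at 267 against 519.5 CPM, *Ano1* at 83.5 against 240.0, *Slc12a2* at 66.8 against 182 and *Atp1b2* at 100.2 against 172 CPM. The groups were split by *Scn7a* itself, so the values are a description. The part of IL transcripts in the 29 cells was not tested.

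**Figure D4:**
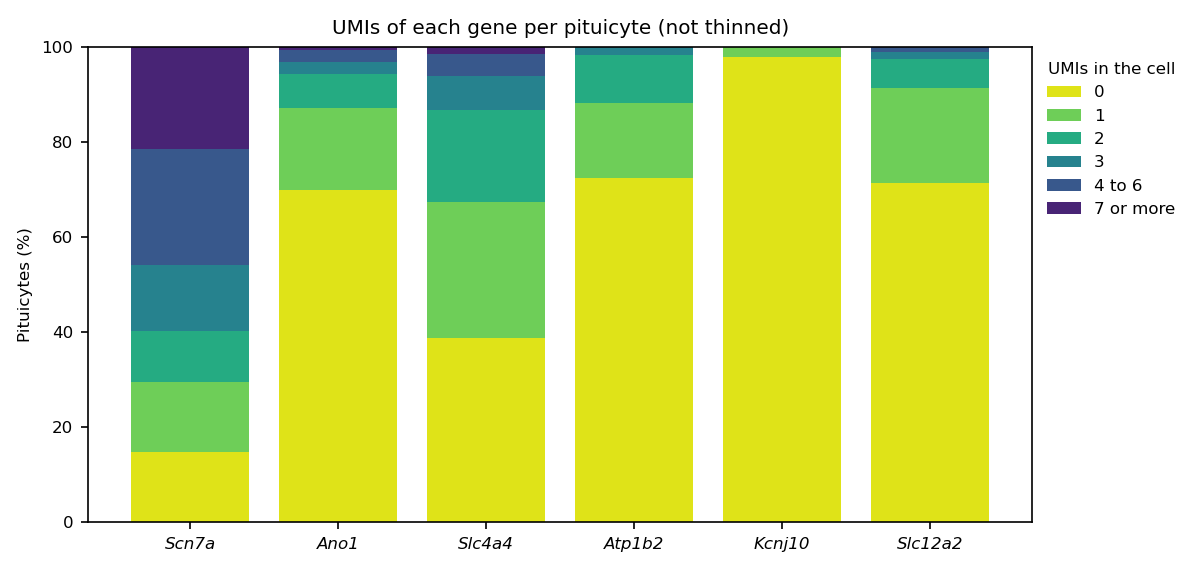
Percent of the 196 pituicytes with 0, 1, 2, 3, 4 to 6, or 7 or more UMIs of each gene, before thinning (stacked to 100%). *Scn7a* was found in 167 of them and reached 28 UMIs in a cell, while 192 had no *Kcnj10* UMI.

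The authors had divided pituicytes into 3 clusters, a, b and c, with 87, 55 and 54 cells. *Scn7a* had 2040.0 and 1606 CPM in cluster a of pools 1 and 2, 1595 and 1415 in cluster b, and 1459 and 2421 in cluster c. The pools differed more within cluster c than the clusters did in their means (1823, 1505 and 1940.0 CPM), and the order of the 3 clusters differed between the pools. *Ano1* was higher in cluster c (223 and 382 CPM) than in a (188 and 203) or b (187 and 131) in each pool. *Slc4a4* was lower in b than in a in both pools (509 and 236 against 608 and 459 CPM), and c lay at 446 and 637 CPM. *Atp1b2* and *Slc12a2* were lower in b (119 and 105 CPM, 136 and 131 CPM) than in a (159 and 216 CPM, 174 and 184 CPM) in both pools. These orders rest on few UMIs. In pools 1 and 2 cluster b held 7 and 4 of *Atp1b2*, 8 and 5 of *Slc12a2* and 11 and 5 of *Ano1*. In pool 1 cluster a held 11, 12 and 13 of them, so the order of the clusters is not fixed for these genes. All 4 *Kcnj10* UMIs of pituicytes were in cluster a. The clusters were built on the same cells, and with 2 pools an exact permutation test of 2 against 2 could not go below 0.333, so none was run.

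The mitochondrial share of a cell moved with these levels. In pool 1 the 11 pituicytes with a share under 10% had 572 CPM of *Scn7a* and the 97 with 10 to 25% had 1800.1 CPM. In pool 2 it was 1178 CPM in 38 cells and 2303 CPM in 50 cells. The difference was as wide when mitochondrial UMIs were left out of the total, with 605 and 2184 CPM in pool 1 and 1282 and 2738 CPM in pool 2. *Ano1* (153 and 210.1 CPM in pool 1, 169.5 and 295 in pool 2), *Slc4a4* (343 and 530.0, 407 and 524) and *Slc12a2* (114 and 148, 127 and 244) were also higher in the cells with the higher share in both pools. *Atp1b2* was not in pool 1 (153 and 134, 144 and 229). The 11 cells of pool 1 held only 4, 9, 3 and 4 UMIs of these genes in that order, so their direction in pool 1 is not fixed. The summed pituicyte markers were also higher at the higher share, by a smaller ratio than *Scn7a* (3814 and 5744 CPM in pool 1, 5416 and 5933 in pool 2). Of the 49 cells with a share under 10%, 45 belonged to cluster a. The part of RNA quality in the *Scn7a* level was not tested.

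Barcodes outside the kept cells held the genes as well. The 56 barcodes of pool 1 that failed the mitochondrial limit alone had 168 *Scn7a* UMIs (1654 CPM), near the level of pituicytes, and the 27 of pool 2 had 43 (854 CPM). Free RNA of pool 1 (barcodes of 1 to 50 UMIs) had *Scn7a* at 252 CPM, which is 15.2% of the pituicyte level. The other genes lay between 15.1% (*Slc4a4*) and 29.7% (*Slc12a2*) of theirs, and the pituicyte markers at 12.2%. Free RNA made up an estimated 6.10% and 5.19% of the UMIs of a cell, so that it would give 3.62 of the 392 *Scn7a* UMIs in the pituicytes of pool 1.

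For a comparison over all genes, the UMIs were summed by pool and type and pituicytes were contrasted with the average of the remaining 6 types on the log scale (edgeR quasi-likelihood test). In this contrast 756 of 4510 genes were called higher in pituicytes (16.8%) and 43 lower (0.953%), with an adjusted p (Benjamini-Hochberg) no larger than 0.05 and a natural log (ln) fold no smaller than 1. Of the 6 genes, 5 were called higher and none lower, and *Kcnj10* was not called. Since the genes were chosen with this contrast known, nothing is read from that count. The fitted ln folds were 5.20 for *Scn7a* (SE 0.27), 5.45 for *Slc4a4* (SE 0.38), 5.19 for *Ano1* (SE 0.49), 2.38 for *Slc12a2* (SE 0.40) and 2.24 for *Atp1b2* (SE 0.35), and 0.26 for *Kcnj10*, with a median of 3.78 against 0.41 over all genes. The folds and SEs of all 6 genes depend on the prior count, because each gene had 0 UMIs in at least 1 other type in both pools. DESeq2 on the same sums called 3 of the 6 genes. It did not call *Ano1* and *Slc4a4*, although their ln folds of 3.91 and 4.40 were above that of *Atp1b2* (1.86), which it called, and it turned the *Kcnj10* fold to -0.43. The sign of *Kcnj10* also depends on how the types are weighted, since its pooled ratio to all other cells was below 1.

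A mean over log values gives each type the same weight, so a gene can be called higher through types where it has no counts while another type exceeds pituicytes. Of the 756 genes called higher, 198 (26.2%) had their highest CPM in pituicytes in both pools. Among the 6 genes this held for 4 of the 5 called, namely *Scn7a*, *Ano1*, *Slc4a4* and *Atp1b2*. The 6 genes were chosen with their pituicyte levels known, so this count is a description. *Slc12a2* was called higher and had its highest CPM in the VLMC cluster. That level came from 8 UMIs, 7 of them in the 2 cells with oligodendrocyte markers, and its intervals overlapped those of pituicytes.

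A list of 190 further genes of ion and water transport was set beside the 6. Of these, 188 were in the files, 146 had a UMI and 36 had enough counts for the fit. Of the 36, 15 (41.7%) were called higher and none lower, with a median ln fold of 1.13, where 16.8% of all genes tested were called higher with a median of 0.41. Of the 15, 5 (33.3%) had their highest CPM in pituicytes in both pools, against 26.2% of all genes called higher. These 5 were *Car14*, *Trpm3*, *Ttyh1*, *Ano6* and *Lrrc8d*. The list was drawn up with earlier results of these data known.

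Among genes of bicarbonate and proton transport 1 of 7 tested was called higher. This was *Car14*, a membrane carbonic anhydrase, with 280.1 and 343.0 CPM in pituicytes and an ln fold of 4.38 (SE 0.38). Elsewhere it had 2 UMIs in IL cells, 1 among macrophage/microglia and 2 in the VLMC cluster. Of the relatives of *Slc4a4*, the anion exchanger *Slc4a2* had 46.7 and 51.3 CPM in pituicytes and was not called. The cotransporter *Slc4a7* had 1 UMI in each pituicyte pool, against 10 and 10 in IL cells (35.6 and 40.1 CPM). In macrophage/microglia *Slc4a7* had 8 and 5 UMIs (90.2 and 46.3 CPM).

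Of the chloride and anion channels 7 of 10 tested were called higher. *Mlc1*, a membrane protein of astrocyte endfeet, had 187.0 and 158.0 CPM in pituicytes (ln fold 4.15, SE 0.49), yet 155.0 and 186.0 CPM in epithelial-like cells. *Ttyh1* was called at an ln fold of 2.97 (178.0 and 189.0 CPM). *Ttyh2* was called at 1.86, with 21.2 and 47.3 CPM in pituicytes, yet 118 and 265 CPM in the VLMC cluster (1 and 4 UMIs). *Ano6*, a phospholipid scramblase and ion channel related to *Ano1*, had 403.0 and 383.0 CPM in pituicytes (1.96, SE 0.23) and UMIs in all other types, unlike *Ano1*. *Ano10*, another relative, had 0 and 4 UMIs in pituicytes and was not tested. *Lrrc8d*, a subunit of the volume-regulated anion channel, was called at 1.53, the exchangers *Clcn4* and *Clcn3* at 1.44 and 1.34. *Clcn3* had 140.0 and 134.0 CPM in pituicytes and 156.0 and 172.0 CPM in IL cells. *Clcn4* had 67.9 and 90.7 CPM in pituicytes, 74.7 and 36.1 CPM in IL cells and 0 and 132 CPM in the VLMC cluster.

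Of the pumps 5 of 10 tested were called higher. The beta subunits differed from *Atp1b2*: *Atp1b1* was called (1.64) with 149.0 and 110.5 CPM in pituicytes and 725.0 and 879.8 CPM in epithelial-like cells, and *Atp1b3* was not called (-0.10). The pump regulator *Fxyd1* was called at 2.22 and the calcium pump *Atp2a2* at 1.25. Neither had its highest CPM in pituicytes in both pools.

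Among cation-chloride cotransporters 1 of 3 tested was called higher. This was *Slc12a4*, which exports potassium and chloride, at an ln fold of 2.39 from 10 and 16 UMIs in pituicytes. It did not have its highest CPM in pituicytes in both pools. Its relative *Slc12a7* (4 and 1 UMIs) was not tested. Of the other cation channels 1 of 3 was called, *Trpm3* (3.47, SE 0.57; 123.0 and 107.0 CPM in pituicytes, 35.6 and 44.1 CPM in IL cells).

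Among the voltage-gated sodium channels related to *Scn7a*, *Scn2a1* and *Scn3a* lay mainly in IL cells. *Scn2a1*, named here after its values were seen, had 17.0 and 19.7 CPM in pituicytes against 103.0 and 104.0 CPM in IL cells, and had no UMI in the remaining types. Its fitted ln fold of 2.01, not called, has the opposite sign to that difference. *Scn3a* had no UMI in pituicytes and 19 and 21 in IL cells, whereas *Scn9a* had 6 and 7 UMIs in pituicytes and 3 and 5 in IL cells. Potassium channels had 2 genes tested and none called, and 32 of 46 had a UMI. No water channel had enough counts. *Aqp4*, the water channel of astrocyte endfeet, had 0 and 2 UMIs in pituicytes and 9 in the epithelial-like cells of pool 2.

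**Figure D5:**
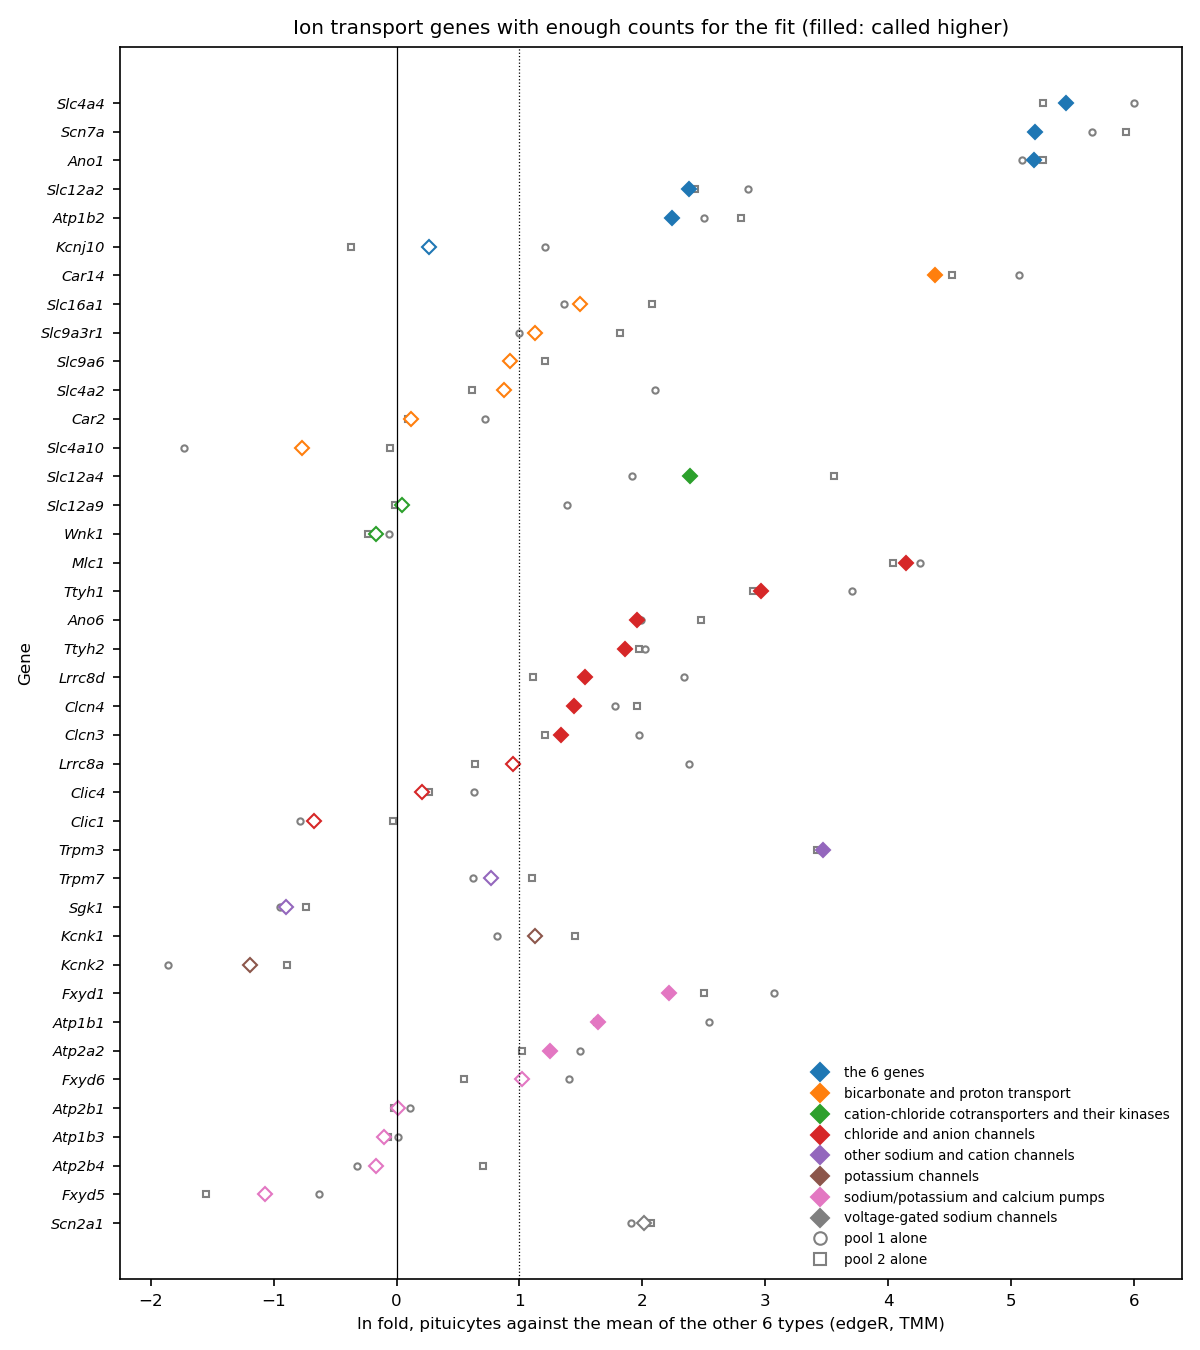
Fitted ln fold (natural log, edgeR with TMM) of pituicytes against the mean of the other 6 types for the 6 genes and 34 of the 36 list genes tested, coloured by family; filled diamonds are genes called higher, open ones not called, and grey symbols are the same contrast in each pool alone. *Slc4a4* (5.45), *Scn7a* (5.20) and *Ano1* (5.19) lie furthest right, and the pools of *Kcnj10* lie on either side of 0 (1.21 and -0.37).

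The pattern of each gene over the 14 sums of pool and type was compared with that of 9760 genes with at least 15 UMIs, by Pearson's r of log2(CPM + 50). The sums share 2 libraries and differ in depth, so r is a description. Most like *Scn7a* were *Car14* (0.986), *Nkx2-1*, a transcription factor of the ventral forebrain and neurohypophysis (0.982), and the glutamate receptor gene *Gria3* (0.980). As 96.8% of the *Scn7a* UMIs were in pituicytes, other genes found mainly there also give a high r with *Scn7a*. *Ano1* came closest to *Gm43782* and the secreted protease gene *Htra1* (both 0.9995) and to *Gpr50* (0.999). Since *Ano1* had 0 UMIs in other types, any gene confined to pituicytes gives an r near 1 with it. The same nearly holds for *Slc4a4*, with 2 UMIs elsewhere. *Slc4a4* came closest to the proteoglycan gene *Bcan*, to *Gldc*, an enzyme of glycine breakdown, and to *Sorcs3* (each 0.996). Near to *Atp1b2* were *Gm11266* (0.934) and *9530068E07Rik* (0.914). *Slc12a2* was nearest to *Golim4* (0.925) and to *Gpm6b* and *F3* (both 0.922). For *Kcnj10* they were *Pdlim2* (0.944), *S100b* (0.940), which had 0 CPM in pituicytes, and *Anks1b* (0.935). Between the 6 genes, r was 0.99 for *Ano1* with *Slc4a4*, 0.91 and 0.90 for *Scn7a* with these, 0.80 for *Kcnj10* with *Slc12a2* and -0.14 for *Kcnj10* with *Ano1*. The values of *Kcnj10* rest on 16 UMIs in all. In the VLMC cluster, 5 of its 6 UMIs and 7 of the 8 of *Slc12a2* were in the 2 cells with oligodendrocyte markers. The r without these cells was not computed.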

How the data were processed

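The 2 libraries (10x Chromium version 2) each came from a pool of 5 mice. The deposited UMI counts per gene and barcode were made by the authors with Cell Ranger 2.0.0, 1500 forced cells and a prebuilt mm10 reference, and are not normalized. The deposited table of cluster means holds linear values, UMIs scaled to 10000 per cell and averaged by the authors with Seurat 2.3 over both pools in 11 clusters. It holds no replicates and was used here to recover the cluster of each cell. No columns of fold changes or p-values were used.

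For pool 1, which listed 170936 barcodes with a UMI, the 1500 with most UMIs were taken. Cells had over 1000 and under 10000 UMIs, over 400 and under 5000 genes and under 25% mitochondrial UMIs, as the study had set. Each of the 528 cells had a non-negative least squares weight of at least 0.981 in its own cluster. The mean of the 6 genes in the recovered clusters differed from the deposited one by at most 0.00296 UMIs per 10000. Over the 14999 genes shared with the deposited means, 336 differed by more than 0.05 in at least 1 cluster, with a largest difference of 1.46. Median depth was 2050.0 and 2330.0 UMIs per cell in pools 1 and 2. No doublet caller was run.

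Counts were summed into 14 sums of pool and type. edgeR 4.0.16 (R 4.3.3; TMM, minimum count 5 and minimum total 15) tested 4510 genes, all types sharing 1 estimate of the spread with 7 residual degrees of freedom. The sums are paired by pool, since its types share mice and library. SEs are the fold divided by the root of the F statistic. Alternatives were library size scaling, DESeq2 1.42.0, other count minimums, a pool block, clusters made without ion transport genes (scanpy 1.11.5), a mitochondrial limit of 10%, each pool left out, free RNA subtracted and thinning to 1000 UMIs. Free RNA was profiled in pool 1, in barcodes of 1 to 50 UMIs, and its share of each cell was set from *Pomc* in immune cells. Intervals are exact Poisson or Clopper-Pearson intervals at the 95% level.

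Genes named are the 6 genes, list genes called higher (at most 15 by fold), their nearest relatives and the 3 genes most alike in pattern, and some genes that this rule gives are not reported here. The 6 genes and all lists were chosen with earlier results of these data known.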

Additional observations from a re-analysis of the deposited data

Results flagged for a closer look

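Barcodes outside the kept cells held UMIs of the 6 genes above the limit of 3 counts. In pool 1, barcodes holding free RNA (1 to 50 UMIs) had 477 UMIs of *Scn7a*, 145 of *Slc4a4*, 81 of *Slc12a2*, 75 of *Ano1*, 59 of *Atp1b2* and 7 of *Kcnj10*. The 56 barcodes of pool 1 that failed the mitochondrial limit alone had 168 UMIs of *Scn7a*, 42 of *Slc4a4*, 17 of *Ano1*, 16 of *Atp1b2* and 14 of *Slc12a2*. The 27 such barcodes of pool 2 had 43 UMIs of *Scn7a*, 12 of *Slc4a4* and 4 of *Slc12a2*. The study has no control samples to compare them with. With 2 pools per group, no pool could be set apart from the others of its group.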

How the results depend on the processing

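Against 756 genes called higher in pituicytes, DESeq2 called 215, a minimum count of 10 left 283 of 1899 tested, a mitochondrial limit of 10% left 215 of 2361 and no low-count filter gave 2017 of 16258. For the list of ion transport genes, 15 called became 6, 8, 7 and 30 in the same order. The filters and the lower limit tested fewer or more genes by construction. The cause of the difference to DESeq2 was not tested. With a replicate block for the pool 726 genes and 14 list genes were called, and the median ln fold of the 6 genes stayed at 3.78. That median was 3.72 with library size only, 2.88 with DESeq2, 3.89 with no filter, 5.22 over the 4 genes tested at a minimum count of 10, 5.29 over 5 genes with clusters made without the ion transport genes (where none was named as VLMC, so that this type left the contrast too), 4.73 over 3 genes at the mitochondrial limit of 10%, and 5.18 over 5 genes without the 2 cells of the VLMC cluster with oligodendrocyte markers, an alternative chosen after seeing the data. With a pool left out the median over the 6 genes lay between 3.97 and 4.03. *Kcnj10* did not pass the count filter where 3, 4 or 5 genes were tested, so those medians are not comparable with 3.78. *Atp1b2* also dropped out at a minimum count of 10, and *Ano1* and *Atp1b2* at the mitochondrial limit of 10%. Without the 2 cells *Scn7a*, *Ano1*, *Slc4a4*, *Atp1b2* and *Slc12a2* were at 5.18, 5.19, 5.45, 2.22 and 2.69, against 5.20, 5.19, 5.45, 2.24 and 2.38. *Kcnj10* turned to -0.43 with DESeq2 and lay between -0.37 and 1.21 with a pool left out. DESeq2 also lost the calls of *Ano1* and *Slc4a4*, at ln folds of 3.91 and 4.40. The median of all genes was shifted by 0.595 (log2) with TMM, 0.363 with library size and 0.131 with DESeq2. The level of *Scn7a* in pituicytes fell from 1721 to 875 CPM at the mitochondrial limit of 10%, where 49 pituicytes remained, and was 1809 CPM with free RNA subtracted. Clusters made without the ion transport genes named 185 pituicytes, 177 of them among the authors' 196. In these clusters the ln folds were 5.86 for *Scn7a*, 5.29 for *Ano1*, 5.44 for *Slc4a4*, 2.56 for *Atp1b2* and 3.02 for *Slc12a2*. Depth limits the vascular endothelia and the VLMC cluster most, with at most 15098 UMIs per sum.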
